A study of Mus musculus with 12 samples.

Results

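Glucocorticoid signalling genes were examined in mouse primary hippocampal cultures: the receptors Nr3c1 and Nr3c2, the steroid-activating enzyme Hsd11b1, and the responsive genes Fkbp5, Tsc22d3, Sgk1, Zbtb16, Sult1a1, Pdk4 and Errfi1. These 10 genes were taken by symbol from the 48709 genes of the count files, and all 10 were among the 18847 that passed the filter on low counts. The cultures came from CD1 embryos at embryonic day 17 and received lipid nanoparticles at day 10 in vitro (DIV10). Nanoparticles carried a miR-148a-3p mimic in 6 cultures and a negative control oligonucleotide in 6 cultures, and RNA was collected 48 h later at DIV12. The methods of the study add ApoE4 to both groups, and the medium of both contained the supplement B27, whose formula includes corticosterone. Hippocampi from several embryos were pooled per preparation, and such cultures hold neurons and glia. The labels do not say which of the 12 samples share a preparation, so p-values measure the spread between these samples, which may be partly technical.

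Glucocorticoids such as corticosterone enter the cell and bind the glucocorticoid receptor (GR, Nr3c1), a ligand-activated transcription factor held in a chaperone complex until hormone arrives. The mineralocorticoid receptor (MR, Nr3c2) binds the same steroid with higher affinity and is abundant in the hippocampus, where the balance of both receptors shapes the response to stress. Bound receptor moves to the nucleus and raises transcription of genes such as Fkbp5, whose protein in turn lowers the affinity of GR for hormone.

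A microRNA mimic acts on transcripts that carry a match to its seed, bases 2 to 8 from the 5′ end. The oligonucleotides of the reagent list are shown here with the seed in capitals, because the matches in the members are read against them. The mimic is identical to mature mmu-miR-148a-3p of RefSeq.
miR-148a-3p mimic: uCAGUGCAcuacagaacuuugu
negative control: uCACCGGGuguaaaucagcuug

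Of the 10 members, 3 held a match to the miR-148a-3p seed in the longest annotated 3′ UTR, and none held a match to the seed of the negative control. Words searched were TGCACTG, which pairs with the whole seed, and GCACTGA, which pairs with bases 2 to 7 and adds an A, and an 8-base site holds both in 1 place. Pdk4 and Errfi1 carried 1 site of 8 bases each, and Fkbp5 carried 1 site of 7 bases. For comparison, 21.9% of 15082 tested genes with a 3′ UTR had any site and 4.2% had an 8-base site. A site for the negative control seed was held by 4.4% of these genes, so its absence from 10 members says little. These sites are printed 5′ to 3′ on the transcript strand of GRCm38 (mm10), with the matched bases in capitals. All 3 lie in 3′ UTRs annotated by GENCODE M21 and are shown because they are the only matches among the 10 genes.
Pdk4, chr6:5484767-5484796, minus strand: aatgttaaataTGCACTGAcctcagaaagt
Errfi1, chr4:150868757-150868786, plus strand: ctttagaaaaaTGCACTGAtctccgcactg
Fkbp5, chr17:28400600-28400628, minus strand: agatttgcttaGCACTGActgactggcct

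Total counts per library ran from 20018234 to 37149112 in control and from 28316456 to 33808253 in mimic. Control replicates 1 and 2 were the shallowest libraries, and members are also described without them below. Every pair of replicates differed by more than counting error. Levels are given in CPM, read counts relative to the library total after TMM scaling, and differences are log2 fold changes of mimic over control with their standard error (SE) and edgeR adjusted p. The members were counted on 95.4 reads on average for Sult1a1 to 2716 for Nr3c2, and Sult1a1 also had the largest SE. The samples are labelled as neurons. The 10 neuron markers, among them Map2, Tubb3 and Snap25, summed to 6870 CPM or more in every library, and the 9 astrocyte markers to 4890 CPM or more.

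Of the 10 genes, 7 passed an adjusted p of 0.05. Nr3c1, Hsd11b1, Fkbp5 and Tsc22d3 were higher in mimic, by 24.9% to 37.3%. Sgk1, Errfi1 and Pdk4 were lower, and Nr3c2, Zbtb16 and Sult1a1 did not pass. Among all tested genes 22.2% passed, 11.5% as higher and 10.7% as lower. Groups did not overlap in 6 of the 10 members, against 13.3% of all tested genes. The members were chosen with earlier results of these data known, so these counts are a description only. The changes were modest. The median log2 fold change was 0.13 over the 10 members and -0.012 over all tested genes, and the median absolute change of the 7 called members was 0.35, against 0.30 for all called genes.

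**Figure D1:**
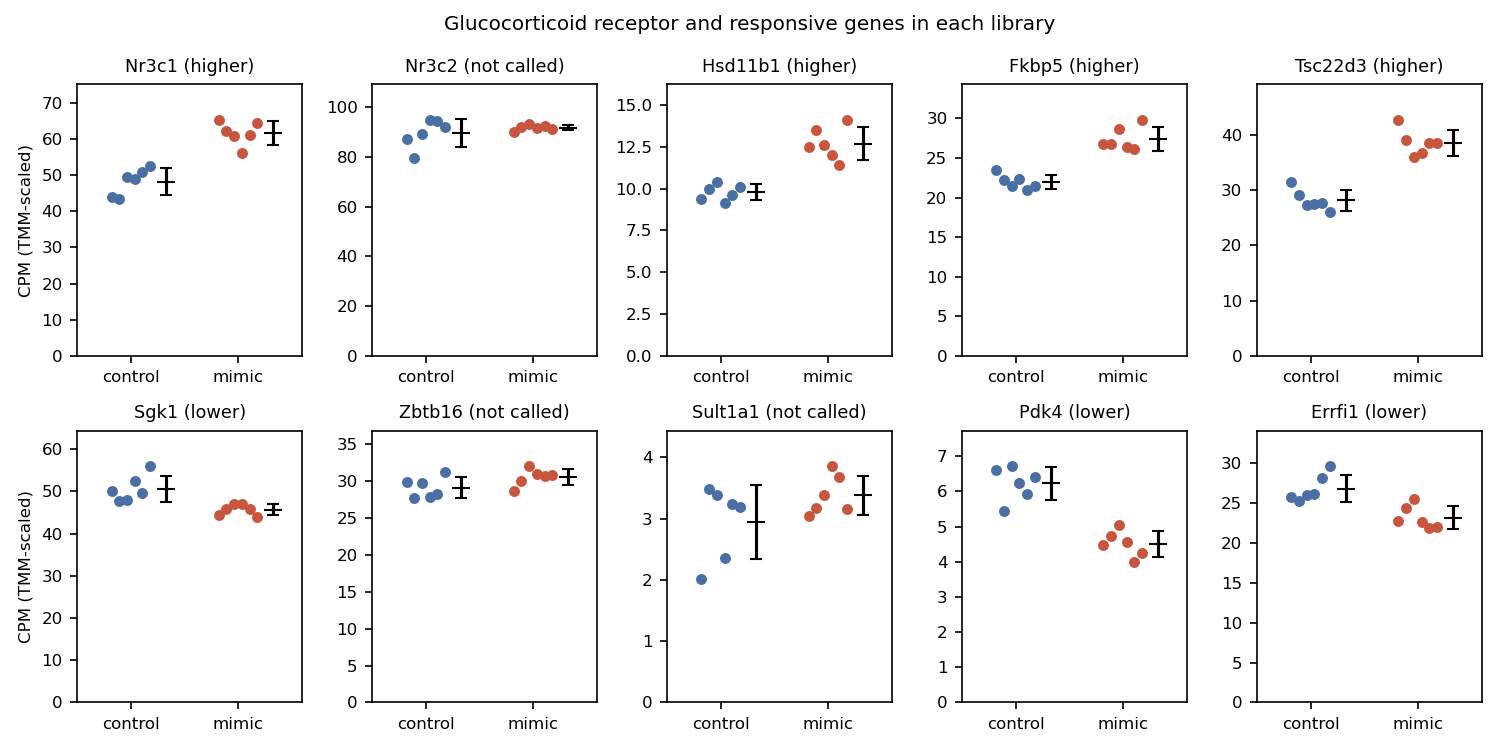
Level of each of the 10 genes in every library, in CPM (y axes start at 0), with 6 control libraries in blue and 6 mimic libraries in red. Black marks give mean ± SD. Nr3c1, Hsd11b1, Fkbp5 and Tsc22d3 lie higher in all 6 mimic libraries than in any control library, and Pdk4 and Sgk1 lie lower.

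Of the receptors, Nr3c1 was higher in mimic and Nr3c2 did not pass the threshold. Nr3c1 (ENSMUSG00000024431, mm10 chromosome 18, 39410545 to 39519421) had 43.3 CPM in the lowest control library, a median of 49.2 and 52.4 in the highest. In mimic it had 56.1, 61.6 and 65.2 CPM. Every mimic library was above every control library, with a log2 fold change of 0.35 (adjusted p = 6.73e-05 by edgeR, SE 0.051). The lowest control levels were those of replicates 1 and 2, and without both the log2 fold change was 0.29 (edgeR adjusted p = 2.89e-06). Nr3c2 (ENSMUSG00000031618, chromosome 8, 76899442 to 77245012) ran from 79.5 CPM over a median of 90.7 to 94.8 in control and from 89.9 over 91.7 to 93.3 in mimic. Here the mimic libraries sat inside the control range, and the log2 fold change was 0.034 (adjusted p = 0.618 by edgeR, SE 0.040). Gm10649, a non-coding gene on the opposite strand, shares 3.8% of the exonic bases of Nr3c2, at 59.3 counts on average.

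Within a library the ratio of Nr3c2 to Nr3c1 counts needs no scaling between libraries. The 6 control libraries had a ratio of 1.86 ± 0.0868 (SD, n = 6) and the mimic libraries one of 1.49 ± 0.0910 (SD, n = 6), with ranges of 1.76 to 1.99 and 1.38 to 1.63 that did not overlap. This is a log2 difference of -0.32 (SE 0.045, exact permutation p = 0.00216, two-sided, also 0.00216 after adjustment over the 2 ratios tested). With 6 against 6 libraries no smaller p can be reached. Per kilobase of exon, the ratio of MR to GR transcripts was 2.21 in control and 1.77 in mimic, so Nr3c2 remained the more abundant receptor transcript in both groups.

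Hsd11b1 encodes the enzyme that regenerates active glucocorticoid from its inert keto form inside cells. It lies on chromosome 1, 193221634 to 193264075 (ENSMUSG00000016194). Its level ran from 9.13 CPM over a median of 9.80 to 10.4 in control and from 11.4 over 12.6 to 14.1 in mimic. All mimic libraries exceeded all controls, with a log2 fold change of 0.38 (adjusted p = 0.000153 by edgeR, SE 0.060).

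Fkbp5 and Tsc22d3, widely used readouts of GR activity, were both higher. Fkbp5 encodes an immunophilin of the receptor complex (ENSMUSG00000024222, chromosome 17, 28399094 to 28517527). It ran from 21.0 CPM over 21.8 to 23.5 in control and from 26.1 over 26.8 to 29.8 in mimic, without overlap, and its log2 fold change was 0.32 (adjusted p = 4.59e-05 by edgeR, SE 0.045). Its 3′ UTR holds the 7-base site shown above. Tsc22d3 encodes the leucine zipper protein GILZ, an inhibitor of inflammatory transcription (ENSMUSG00000031431, chromosome X, 140539528 to 140600659). It ran from 26.1 CPM over 27.5 to 31.5 in control and from 36.0 over 38.6 to 42.7 in mimic. This was the largest increase of the 10 genes, at a log2 fold change of 0.46 (adjusted p = 3.80e-06 by edgeR, SE 0.051), again with no overlap between groups. Control replicate 1 was the highest control library for both genes, and without control replicates 1 and 2 the log2 fold changes were 0.35 for Fkbp5 and 0.51 for Tsc22d3.

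Fkbp4 encodes the immunophilin that takes the place of FKBP5 in the receptor complex when hormone binds. Its level was 137 CPM in control and 130 CPM in mimic on average, and it did not pass the threshold (adjusted p = 0.294 by edgeR, log2 fold change -0.071, SE 0.045). The ratio of Fkbp5 to Fkbp4 counts went from 0.161 ± 0.00666 (SD, n = 6) in control to 0.210 ± 0.0130 (SD, n = 6) in mimic. Ranges of 0.149 to 0.167 and 0.197 to 0.230 did not overlap, and the log2 difference was 0.39 (SE 0.044, exact permutation p = 0.00216, two-sided, 0.00216 after adjustment over both ratios).

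**Figure D2:**
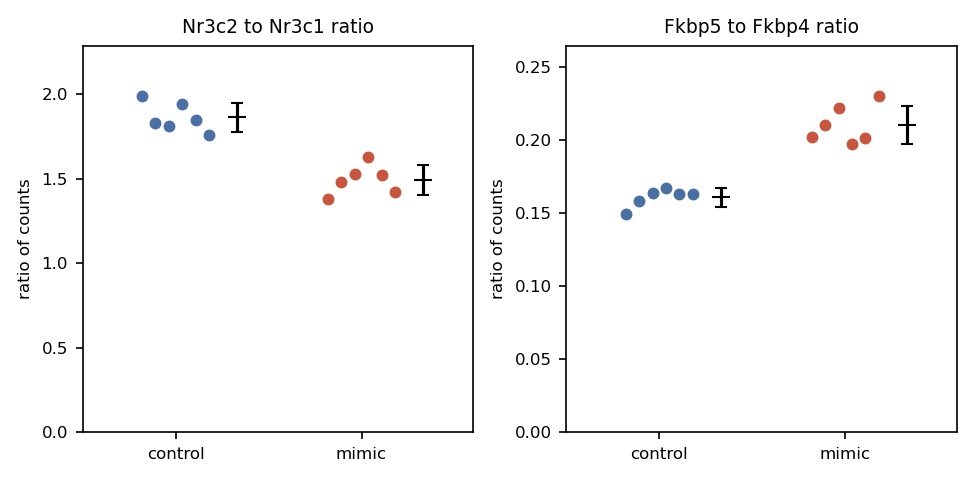
Ratio of counts within each library for Nr3c2 over Nr3c1 (left) and Fkbp5 over Fkbp4 (right), with 6 control libraries in blue, 6 mimic libraries in red and mean ± SD in black. The first ratio is lower and the second higher in all 6 mimic libraries than in any control library.

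Another group of responsive genes went the other way. Pdk4 encodes a kinase that inhibits the pyruvate dehydrogenase complex and so restrains glucose oxidation (ENSMUSG00000019577, chromosome 6, 5483351 to 5496309). It ran from 5.44 CPM over 6.33 to 6.71 in control and from 3.98 over 4.52 to 5.03 in mimic. The groups did not overlap, and Pdk4 fell by 0.47 on the log2 scale (adjusted p = 0.000156 by edgeR, SE 0.074). This was close in size to the increase of Tsc22d3, and which of them was larger changed between settings. Errfi1 encodes an inhibitor of the EGF receptor family (ENSMUSG00000028967, chromosome 4, 150853919 to 150868892). Its control libraries ran from 25.3 CPM over 26.1 to 29.6 and its mimic libraries from 21.9 over 22.7 to 25.5, so the groups touched: mimic replicate 3 lay above control replicate 2. It fell by 0.21 on the log2 scale (adjusted p = 0.00595 by edgeR, SE 0.051).

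Sgk1 encodes a kinase that regulates ion channels and transporters and is a target of both receptors (ENSMUSG00000019970, chromosome 10, 21882184 to 21999903). It ran from 47.7 CPM over 49.8 to 55.9 in control and from 43.9 over 45.7 to 47.1 in mimic. The highest mimic library was just below the lowest control library. Sgk1 fell by 0.15 on the log2 scale (adjusted p = 0.0167 by edgeR, SE 0.042), the smallest of the called changes, and its 3′ UTR holds no seed site. Its adjusted p came closest to the threshold of the 7 calls, reaching 0.0467 when single libraries were left out.

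Zbtb16 and Sult1a1 did not pass. Zbtb16 encodes the transcription factor PLZF (ENSMUSG00000066687, chromosome 9, 48654297 to 48836222). It ran from 27.7 CPM over 29.0 to 31.2 in control and from 28.7 over 30.8 to 32.0 in mimic, overlapping ranges with a log2 fold change of 0.070 (adjusted p = 0.270 by edgeR, SE 0.042). Sult1a1 encodes a phenol sulfotransferase (ENSMUSG00000030711, chromosome 7, 126672865 to 126676432). It had 40 to 126 counts in control libraries and 90 to 123 in mimic libraries. Its level ran from 2.02 CPM over 3.21 to 3.48 in control and from 3.04 over 3.28 to 3.85 in mimic, with a log2 fold change of 0.19 (adjusted p = 0.310 by edgeR, SE 0.12). Control replicates 1 and 4 had its lowest levels, and without either of them the log2 fold change was 0.12. A change the size of that of Errfi1 would lie within 2 SE. Exons of Sult1a1 share 4.0% of their bases with Sgf29 on the opposite strand.

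**Figure D3:**
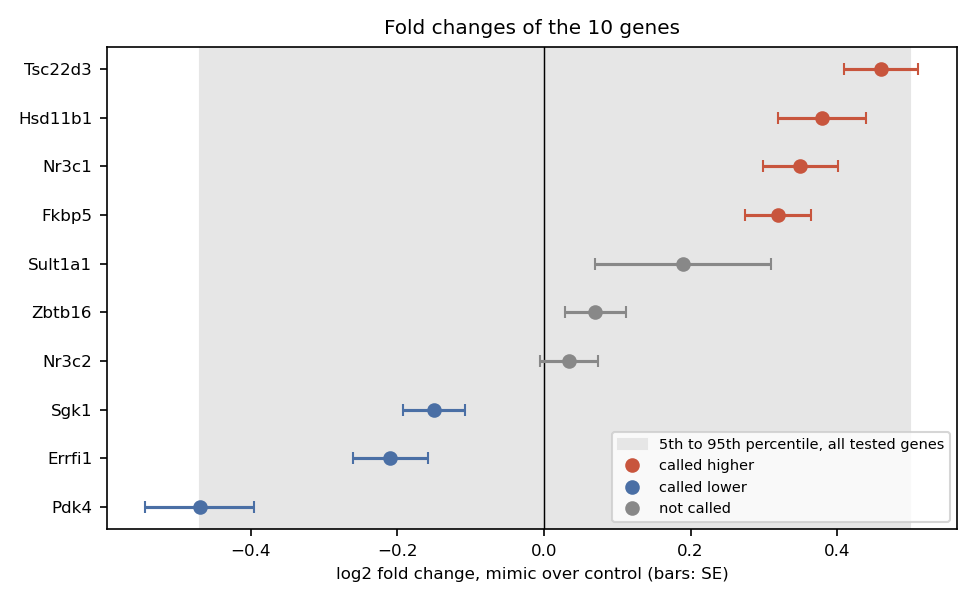
Log2 fold change of mimic over control for the 10 genes, with bars for SE. Red points were called higher, blue points lower and grey points were not called; the grey band spans the 5th to 95th percentile of all tested genes, from -0.47 to 0.50, and all 10 genes fall in or at the edge of it.

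Fold changes of the members with a seed site were set beside those of all genes with the same kind of site. Of 626 tested genes with an 8-base site, the class of Pdk4 and Errfi1, 28.8% were called lower and 8.31% higher, with a median log2 fold change of -0.068. Of 2681 genes with 7-base sites only, the class of Fkbp5, 456 were lower and 334 (12.5%) higher, with a median of -0.028. Among 11775 genes without a site 10.8% were lower and 14.1% higher, with a median of 0.0013. Pdk4 and Errfi1 lay below the median of their class, and Fkbp5 lay above that of its own. Of 65 other genes of the pathway with a 3′ UTR, described below, 19 had a site and none had one of 8 bases.

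**Figure D4:**
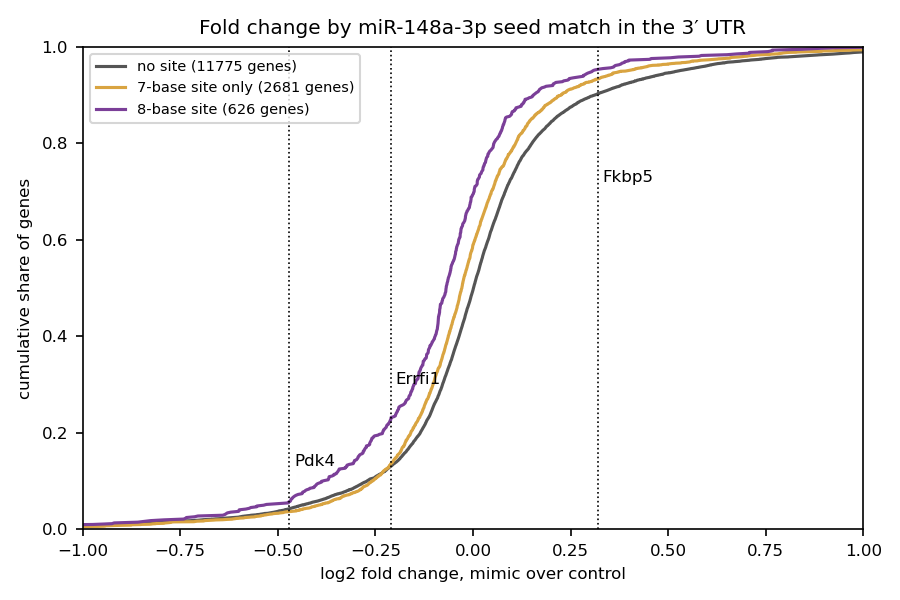
Cumulative share of genes (y axis) against log2 fold change of mimic over control (x axis, shown from -1 to 1) for 11775 genes without a miR-148a-3p site, 2681 with 7-base sites only and 626 with an 8-base site. Dotted lines mark Pdk4, Errfi1 and Fkbp5; the curve of the 8-base class lies furthest to the left over most of the range.

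In control cultures the members differed in level. Per kilobase of exon, Nr3c2 was the most abundant at 13.8 ± 0.880 CPM (SD, n = 6), followed by Sgk1 at 10.3 ± 0.633, and each of these was above the next gene in all 6 libraries without overlap. Errfi1 (7.49), Tsc22d3 (6.49), Nr3c1 (6.26) and Zbtb16 (5.51) came next, with overlapping ranges between neighbours. Fkbp5 (2.32), Hsd11b1 (2.30), Sult1a1 (1.96) and Pdk4 (1.77) were the lowest, separate from Zbtb16 in all 6 control libraries, and their neighbours overlapped too. These levels use the summed length of all annotated exons, so a gene with long unused exons is understated. The coefficient of variation between control libraries was lowest for Fkbp5, at 4.00%, and highest for Sult1a1, at 20.6%.

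Genes most like Nr3c1 and Fkbp5 were sought among 12362 other genes with at least 100 counts on average, by the mean absolute difference of centred log2 CPM over the 12 libraries. For Nr3c1 these were Cr1l, Rfc3 and Pcsk1, at 0.0396, 0.0401 and 0.0404, against a median of 0.189 over all genes compared. For Fkbp5 they were Cdc25b, Cdk4 and Tacc1, at 0.0429, 0.0446 and 0.0449, against a median of 0.172. The measure includes the difference between groups, so neighbours of genes that were higher in mimic had to be higher too, and their log2 fold changes of 0.27 to 0.37 are a description only.

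The rest of the pathway was read from lists that were chosen with earlier results of these data known, and their counts stand beside the 22.2% of all tested genes that were called. Of 13 genes of receptor chaperones, co-chaperones and related factors, edgeR and DESeq2 both called 0. In edgeR 1 of them had an unadjusted p under 0.05, and their median log2 fold change was -0.071. Hspa8, Hsp90aa1 and Ptges3 have pseudogene copies, and whether reads were shared with them was not tested. Of 13 receptor coregulators, 1 was called, Ppargc1a, a coactivator of nuclear receptors and mitochondrial genes, which was higher at a log2 fold change of 0.30 (adjusted p = 3.98e-05 by edgeR, SE 0.042). DESeq2 called 4 of these 13. Of 7 steroid enzymes and transporters, 1 was called. This was Akr1c14, a hydroxysteroid dehydrogenase, named after its values were seen because it has 83.6 counts on average. Its mean level was 4.22 CPM (control) and 1.43 CPM (mimic), a log2 fold change of -1.56 (adjusted p = 5.00e-06 by edgeR, SE 0.18). H6pd, which supplies the cofactor of the Hsd11b1 enzyme, did not pass (adjusted p = 0.269 by edgeR, log2 fold change 0.11, SE 0.063).

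Other genes known to respond to glucocorticoids changed in both directions, as the members did. Of 32 listed genes 30 were tested, 13 were higher, 9 were lower and 8 did not pass, with a median log2 fold change of 0.13. Over all tested genes 11.5% were higher and 10.7% lower, with a median of -0.012, and since the list was chosen with results known its counts are a description only. Among genes with at least 100 counts on average, the largest increases (log2 fold change) were those of Hif3a (1.80), Gpd1 (0.87), Mertk (0.87), Glul (0.74), Cdkn1a (0.55) and Nr4a1 (0.38). Hif3a encodes a hypoxia-inducible factor subunit, Gpd1 a glycerol phosphate dehydrogenase, Mertk a receptor of phagocytosis, Glul glutamine synthetase, Cdkn1a a cell cycle inhibitor and Nr4a1 an orphan nuclear receptor. In the same genes the largest decreases were those of Lcn2, an acute-phase lipocalin (-1.40), Cebpd, an inflammatory transcription factor (-1.21), Ccn2, a matrix protein (-0.57), and the metallothionein Mt2 (-0.51). Fam107a (-0.37) and Mt1 (-0.33), another metallothionein, followed. Control and mimic overlapped for Nr4a1, Lcn2 and Ccn2. The called genes of the list beyond these 12, named after their values were seen, were 7 higher and 3 lower. Per1 (log2 fold change 0.21), Klf9 (0.19), Klf15 (0.32), Ddit4 (0.19), Sesn1 (0.27), Bdnf (0.28) and Gjb6 (1.32, at 15.1 counts on average) were higher. Dusp1 (-0.24), Nfkbia (-0.28) and Cebpb (-0.51, at 68.9 counts on average) were lower. Per1 is a circadian gene, Klf9 and Klf15 are transcription factors, Bdnf a neurotrophin, Gjb6 a gap junction gene of astrocytes, Dusp1 a phosphatase and Nfkbia an inhibitor of NF-κB. Control and mimic overlapped for Per1, Klf15, Ddit4, Dusp1 and Cebpb. Glul is likewise abundant in astrocytes, and values of astrocyte markers follow below.

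**Figure D5:**
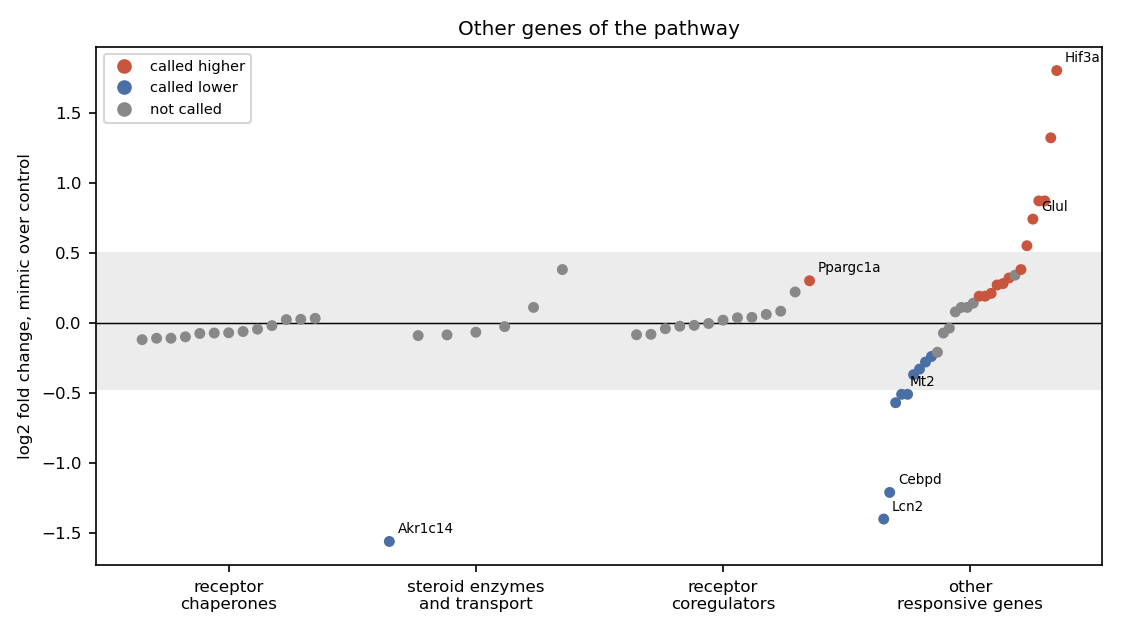
Log2 fold change of mimic over control for the tested genes of 4 further lists of the pathway, each sorted by value, with called genes in red (higher) or blue (lower) and the rest in grey. The grey band spans the 5th to 95th percentile of all tested genes; the chaperones and coregulators stay close to 0, while the other responsive genes spread from -1.40 for Lcn2 to 1.80 for Hif3a.

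Markers of several cell types moved with the groups. A shift in the number of cells of a type and a shift in RNA per cell cannot be told apart in such bulk samples. Astrocyte markers summed to 4890 to 5380 CPM in control and 5720 to 6180 in mimic, with 6 of 9 genes higher. Gfap, an intermediate filament of reactive astrocytes, was the 1 that was lower (1360 and 731 CPM, adjusted p = 5.52e-07 by edgeR). Oligodendrocyte lineage markers summed to 391 to 679 and 767 to 961 CPM, with 5 of 8 higher. Olig1 was most of this sum (306 to 594 and 652 to 834 CPM). Control replicate 1 stood apart at 679 CPM, against 391 to 420 in the other control libraries. All 5 proliferation markers were higher (151 to 188 and 321 to 342 CPM). Neuron markers summed to 7030 to 7500 CPM in control and 6870 to 7050 in mimic, with 1 of 10 higher and 3 lower. Microglia markers were low (11.0 to 13.3 and 9.31 to 20.3 CPM), with 2 of 9 lower. Mimic replicate 2 stood apart in them, with a sum of 20.3 CPM against 9.31 to 13.6 in the other mimic libraries and Trem2 at 3.98 CPM, and without it 4 members were called higher and 3 lower, as with all libraries. Endothelial markers had 2 of 6 lower (46.6 to 68.7 and 28.3 to 50.8 CPM), a sum that was nearly all Kdr (45.2 to 66.5 and 26.6 to 49.8 CPM), and mesenchymal markers 2 of 8 lower (201 to 268 and 98.1 to 226 CPM). No marker was at 0 in all 12 libraries, and Cldn5, an endothelial marker, was the only one under the count filter. Their part in the changes of the 10 members was not tested.

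Promoter sequence from RefSeq (GRCm38.p6, 250 bases before to 50 after a start) was held for 8 of the 10 members, all but Nr3c1 and Zbtb16. It was searched on both strands for AGAACA, the half-site of the receptor element, and for ACANNNTGT, the spaced core of the full element, which can overlap a half-site. Of all 32851 promoters 19.0% held the half-site and 6.8% the spaced core. These shares are per promoter, and Sgk1 has 6 promoters in the table, Tsc22d3 has 3, Errfi1 has 2 and the other 5 genes have 1 each. A half-site was found in 3 of 6 promoters of Sgk1, in 1 of 3 of Tsc22d3 and in that of Sult1a1. The spaced core was found in 2 of 6 promoters of Sgk1. Neither was found in the windows of Fkbp5, Hsd11b1, Pdk4, Errfi1 and Nr3c2. A match in this window, or the lack of one, is a description of the letters only, and sequence outside it was not searched.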

How the data were processed

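RNA was sequenced as 50 bp single-end reads from poly(A) libraries (TruSeq v2, which does not keep strand). Per the labels and methods, the authors aligned reads to mm10 with STAR 2.5.2b and made raw counts per gene with featureCounts of Subread 1.5.1. A deposited table of normalized signal (18289 genes, counts divided by 1 factor per sample) served 1 alternative. Symbols, lengths and 3′ UTRs came from GENCODE M21 (GRCm38, the build of mm10), which named 48349 of 48709 genes.

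Tested genes reached 5 counts in 6 or more of the 12 libraries. The test was edgeR's quasi-likelihood F (4.0.16 in R 4.3.3, TMM, robust, no covariate), with Benjamini-Hochberg adjustment over all 18847 genes. The study used DESeq2, here an alternative (1.42.0). SE is the absolute log2 fold change divided by the square root of F. Ratios of counts (1 added to each) were compared by exact permutation over 924 relabellings. Members and lists were chosen with earlier results of these data known. Named were all members, called pathway genes with at least 100 counts and the largest changes (up to 2 per direction and list, 6 for other responsive genes), Fkbp4, cell type markers, and the 3 genes nearest to Nr3c1 and Fkbp5. Outside this rule, Akr1c14, H6pd, the chaperones Hspa8, Hsp90aa1 and Ptges3 and the other called responsive genes were named after their values were seen. Alternatives were RLE scaling, DESeq2, other count filters, a replicate block, limma 3.58.1 on log2(signal + 1), and leaving out libraries.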

Additional observations from a re-analysis of the deposited data

How the results depend on the processing

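The number of members called higher was 4 and the number called lower was 3 under each of 19 alternatives, among them DESeq2, RLE scaling, both other count filters, limma on the deposited table and each fit without 1 library. Of 258 comparisons of a result with its main value, 257 were unchanged. In these the counts of members called stayed equal, and fold changes and ratios kept direction and side of the threshold. The exception was Nr3c2, which was not called and whose log2 fold change turned from 0.034 to -0.014 without control replicates 1 and 2. Control replicate 2 had its lowest level, and the cause was not tested. Without single libraries the log2 fold changes ran from 0.33 to 0.38 for Nr3c1, 0.43 to 0.49 for Tsc22d3, -0.50 to -0.43 for Pdk4 and -0.16 to -0.12 for Sgk1. Those of genes that were not called ran from 0.0049 (without control replicate 2) to 0.050 for Nr3c2 and from 0.12 (without control replicate 1 or 4) to 0.24 for Sult1a1. Pdk4 was -0.45 and Tsc22d3 0.49 without control replicate 1, an order of size opposite to that with all libraries. No pairing by replicate number was seen, though these values cannot exclude one. The correlation of deviations of same-numbered samples ran from -0.23 to 0.32, and none of the 6 controls correlated best with its own number. With the replicate block 3659 genes were called in place of 4182, and the 7 members called were unchanged, with Sgk1 at an adjusted p of 0.0484. Without control replicates 1 and 2, 5950 genes were called. Of the 13 receptor coregulators DESeq2 called 4 and edgeR 1.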
